A study of Homo sapiens with 6 samples.

Results

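The 10 genes described here are commonly read as markers or drivers of epithelial-mesenchymal transition (EMT), and their mRNA was measured in HepG2 cells with and without atractylon. They were the cadherins CDH1 and CDH2, the transcription factors SNAI1, SNAI2, ZEB1, ZEB2 and TWIST1, and the mesenchymal products VIM, FN1 and SPARC. The members were a fixed list of gene symbols, and all transcripts of each gene in the deposited table were kept and summed. All 10 members were found among 33752 genes, and 6 of them passed the expression minimum that 12293 genes passed, an FPKM (fragments per kilobase of transcript and per unit of sequencing depth) of at least 0.5 in at least 3 libraries.

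HepG2 is a human liver cancer line with epithelial and hepatocyte features, grown here in DMEM with fetal bovine serum. Atractylon is a sesquiterpenoid of Atractylodes rhizomes. Cells exposed to 20 µM atractylon gave 3 libraries, and untreated cells gave the 3 control libraries. The length of treatment is not given in the sources used here. The labels do not say if replicates came from separate cultures, and the p-values below reflect only how far these libraries spread, which may be technical. The study asked how atractylon bears on invasion and migration of liver cancer cells.

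In EMT, epithelial cells loosen their junctions and take on a motile, matrix-producing state. CDH1 encodes E-cadherin, which holds epithelial cells together through calcium-dependent contacts and binds catenins inside the cell. CDH2 encodes N-cadherin, whose rise at the expense of E-cadherin is called the cadherin switch, although liver parenchymal cells can carry both proteins. SNAI1, SNAI2, ZEB1, ZEB2 and TWIST1 encode DNA-binding proteins that recognise E-boxes and repress CDH1. VIM encodes the intermediate filament vimentin, FN1 the matrix and plasma protein fibronectin, and SPARC a collagen-binding matrix glycoprotein.

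No member changed detectably with atractylon. Of the 6 tested members, 0 passed an adjusted p of 0.05 in either direction by edgeR's quasi-likelihood test, and over all 12293 genes tested 0 were higher (0%) and 0 were lower (0%). None of the 6 had an unadjusted p below 0.05, against 198 genes (1.61%) over the whole table. In none of the 6 were the groups separated in CPM (counts scaled to the effective library size), against 704 genes (5.73%) of all tested, 371 of them lower with atractylon (3.02%). By fitted direction, 5 of the 6 were negative and 1 positive, with a median log2 fold change of -0.04 against 0.01 over all genes tested, of which 46.7% were negative. Neither DESeq2 nor limma on log2(FPKM + 0.5) called a gene (0 each), and an unadjusted p below 0.05 was reached by 103 genes in DESeq2 and by 401 in limma.

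Libraries held 5859575 to 8832092 expected counts. The cell line label was checked against cell type markers. All 10 hepatocyte markers were tested and summed to 19741 to 25876 CPM in treated and 21018 to 22442 CPM in control libraries. Of 12 fibroblast and stromal markers, 8 had 0 counts in all libraries, among them COL1A2, COL3A1, DCN and LUM, and the list summed to 54.5 to 84.2 CPM in treated and 75.3 to 84.6 CPM in control libraries. Endothelial markers summed to 12.9 to 14.4 and 10.3 to 15.8 CPM, with KDR, TEK and EMCN at 0. Most of it came from VWF, at 11.8 ± 0.756 against 10.6 ± 2.43 CPM. Blood and immune markers summed to 792 to 911 and 759 to 940 CPM, most of it from LYZ, with HBB at 0. CD14 was at 13.9 ± 0.265 against 10.8 ± 1.64 CPM (SD, n = 3 per group), with no overlap between groups. The part of these cell type markers in the results below was not tested, and in bulk RNA fewer cells of a type and less RNA per cell cannot be told apart. Libraries also differed by base composition and length within both groups. Across 12293 genes, Spearman's correlation of a library's deviation with GC content ran from -0.60 (atractylon replicate 1) to 0.59 (atractylon replicate 2), and that with transcript length from -0.32 (atractylon replicate 2) to 0.38 (atractylon replicate 1). Genes are not independent replicates, so these values are descriptions.

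The members differed widely in abundance. Per length, as FPKM summed over a gene's transcripts, the medians over 6 libraries were 1030 for FN1, 152 for SPARC, 9.23 for CDH2, 7.60 for CDH1, 6.36 for ZEB1 and 3.73 for SNAI1. VIM and SNAI2 had medians of 0.13 and 0.07, and ZEB2 and TWIST1 of 0. FN1 had the second highest mean CPM of all genes (rank 2). The ranges of CDH2, CDH1 and ZEB1 overlapped, so their order did not exceed the spread between libraries. Transcripts under 1000 bases gave 60.2% of the FPKM of SPARC and 57.6% of that of ZEB1, but 19.3% and 14.6% of their counts. With CPM per kilobase of a single principal transcript instead, the medians were 969 for FN1, 39.6 for SPARC, 7.03 for CDH2, 6.08 for CDH1, 3.45 for SNAI1 and 2.10 for ZEB1, so ZEB1 and SNAI1 exchanged places.

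**Figure D1:**
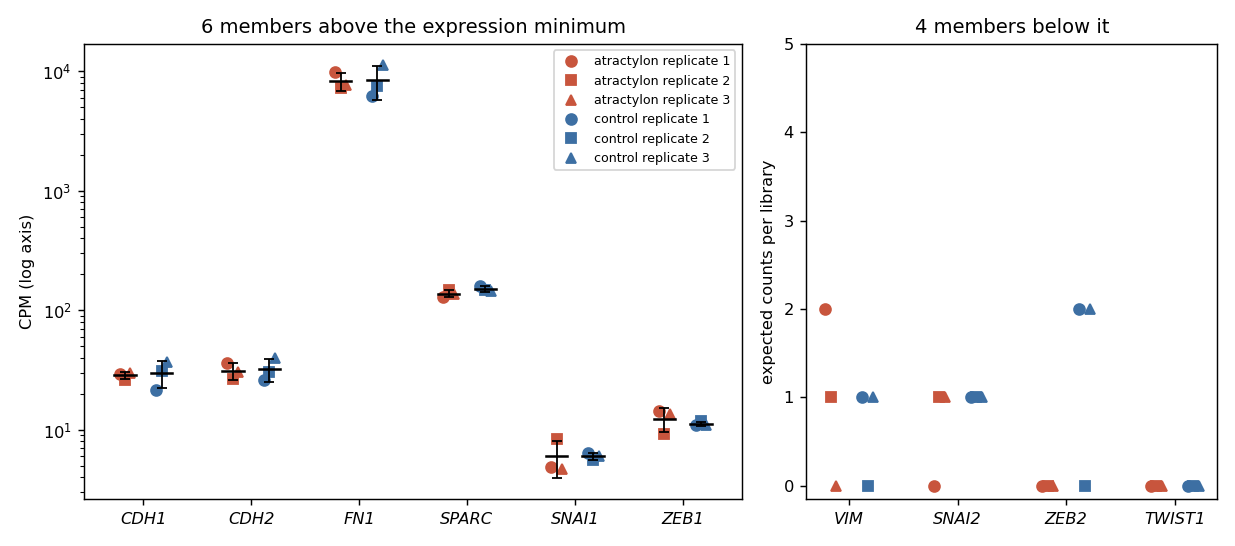
Left, CPM on a log axis for the 6 tested members in each library, with the mean and SD of 3 libraries per group in black; right, expected counts per library for the 4 members below the expression minimum. Treated and control libraries overlapped for each tested member, FN1 lay between 6281 and 11395 CPM, and no low member exceeded 2 counts in a library.

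CDH1, E-cadherin, was at 29.3, 26.2 and 30.1 CPM in atractylon replicates 1 to 3 and at 21.7, 31.0 and 36.7 CPM in control replicates 1 to 3. The treated values lay inside the control range, which was set by a low replicate 1 and a high replicate 3. Group means were 28.5 ± 2.04 CPM in treated and 29.8 ± 7.60 CPM in control cells (SD, n = 3 per group). The log2 fold change was -0.07 ± 0.20 (SE), with a 95% interval of 0.708-fold to 1.29-fold (edgeR adjusted p = 0.9999 over all genes).

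CDH2, N-cadherin, was at 36.5, 26.7 and 30.6 CPM in the treated libraries and at 26.2, 30.3 and 40.2 CPM in the control libraries. The highest and the lowest of the 6 values were both controls. Means were 31.3 ± 4.95 and 32.2 ± 7.16 CPM (SD, n = 3 per group), a log2 fold change of -0.05 ± 0.19 (SE) with a 95% interval of 0.722-fold to 1.30-fold (edgeR adjusted p = 0.9999).

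The cadherins were compared per length within each library. The ratio of CDH2 to CDH1 in FPKM was 1.47, 0.949 and 1.22 in treated and 0.930, 1.09 and 1.11 in control libraries. Its log2 value averaged 0.26 ± 0.32 in treated and 0.06 ± 0.14 in control libraries (SD, n = 3 per group), a difference of 0.20, which was smaller than the SD of the treated group. Treated and control ratios overlapped. From CPM instead of FPKM the same difference was -0.0016, and with 1 library left out it ran from 0.05 (without atractylon replicate 1) to 0.37 (without atractylon replicate 2) in FPKM. Transcripts under 1000 bases gave 15.8% of the FPKM of CDH2 and 4.1% of that of CDH1, but 1.8% and 0.73% of their counts. The part of these short transcripts in the FPKM ratio was not tested.

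Transcripts of the cadherins were examined next. CDH1 lies on chromosome 16 (68737225 to 68835548, plus strand, GRCh38) in GENCODE 29, with another gene on the opposite strand. Its principal coding transcript is CDH1-201, and CDH1-205 is a processed transcript without an annotated coding sequence that starts 26069 bases downstream. The division of reads between overlapping transcripts is an estimate. CDH1-201 took 65.0%, 70.9% and 73.0% of CDH1 counts in treated and 51.7%, 60.4% and 57.2% in control libraries. The groups did not overlap, with means of 69.6% ± 4.14 and 56.5% ± 4.42 (SD, n = 3 per group). A 2-sided exact permutation test gave p = 0.1, the smallest that 3 against 3 libraries allow, and 0.8 after adjustment over the 10 shares tested. Of 33 member transcripts whose share could be compared, the groups did not overlap in 2, CDH1-201 and FN1-225, against 9.58% of all such transcripts. The abundance of CDH1-201 had a log2 fold change of 0.21 ± 0.27 (SE, edgeR adjusted p = 1.00 over 39881 transcripts). In control replicate 2 the coding transcript CDH1-202 also received counts, and all coding CDH1 transcripts together took 51.7% to 74.7% of counts in control and 65.0% to 73.0% in treated libraries, which overlapped.

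CDH2 lies on chromosome 18 (27950966 to 28177446, minus strand, GRCh38), also with a gene on the opposite strand. Its main coding transcripts start far apart: CDH2-202 begins 140861 bases downstream of CDH2-201. RefSeq (GRCh38.p14) has a start 316 bases from that of CDH2-201 and another 56 bases from that of CDH2-202. Its promoter window (250 bases before to 50 after the start) at the first of these lies wholly inside the first exon of CDH2-201 and is not printed. The window at the downstream start is shown because part of the CDH2 reads was assigned to CDH2-202. Capitals mark a TATA box, spelled TATAAA; both strands were searched, and the match overlaps no other motif searched.
CDH2 downstream start, chr18:28036592-28036891, minus strand: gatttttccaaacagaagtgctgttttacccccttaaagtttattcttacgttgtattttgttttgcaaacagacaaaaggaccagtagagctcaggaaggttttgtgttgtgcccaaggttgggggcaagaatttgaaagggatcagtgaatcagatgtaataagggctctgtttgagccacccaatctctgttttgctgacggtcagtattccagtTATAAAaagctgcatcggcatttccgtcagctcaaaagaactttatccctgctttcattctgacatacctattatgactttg

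The GC content was 40.7% in this window and 67.0% in the one at the upstream start, which held 1 GC box, spelled GGGCGG, on the opposite strand. Among 35116 RefSeq promoter windows of this length the TATA box occurred in 11.5% and the GC box in 45.0%. The E-box CAGGTG, a form bound by SNAI and ZEB proteins, was on neither strand of the CDH2 windows and occurred in 20.6% of all windows. A match describes letters and not a bound site. CDH2-201 took 66.9%, 85.4% and 56.2% of CDH2 counts in treated and 86.0%, 24.1% and 56.8% in control libraries. CDH2-202 took 29.3%, 14.6% and 41.3% against 14.0%, 73.4% and 42.2%. The share of CDH2-202 was thus highest in 1 control library and lowest in another, and the groups overlapped (means 28.4% ± 13.4 and 43.2% ± 29.7, SD, n = 3 per group, exact permutation p = 0.5). These shares rest on 143 to 325 CDH2 counts per library.

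**Figure D2:**
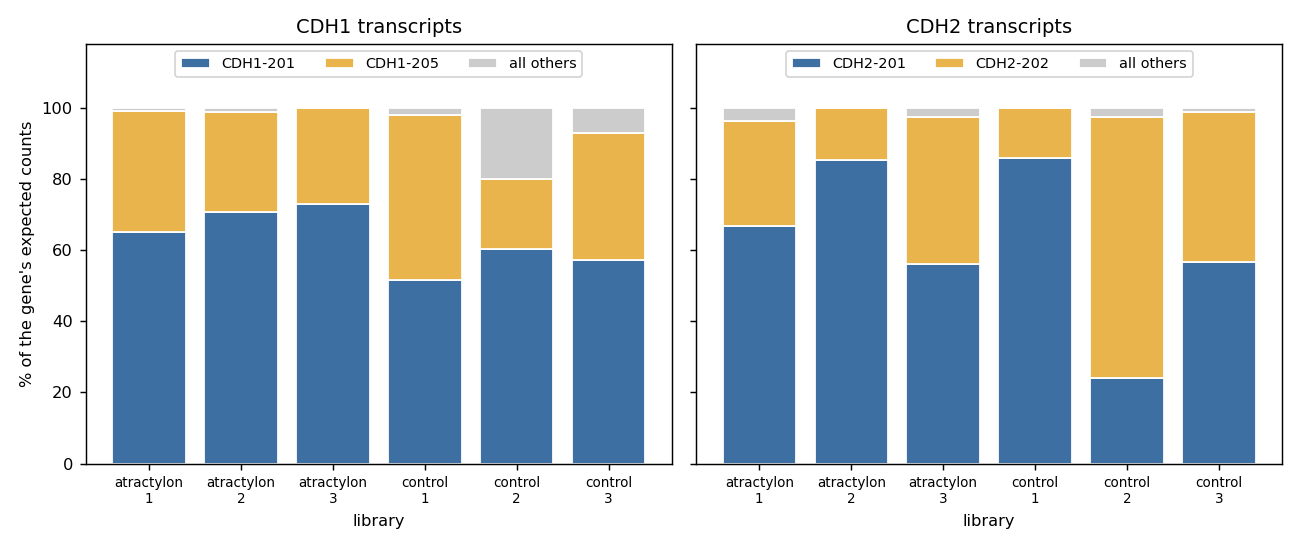
Share of each gene's expected counts (%) assigned to its main transcripts in the 6 libraries, for CDH1 on the left and CDH2 on the right. CDH1-201 ranged from 51.7% to 73.0%, while the share of CDH2-202 ranged from 14.0% to 73.4% within the control group alone.

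Among the transcription factors, SNAI1 was low but measurable. SNAI1, the founding Snail repressor of CDH1, has 1 transcript in the table (chromosome 20, 49982999 to 49988886, plus strand, GRCh38) and received 37, 55 and 31 counts in treated and 35, 37 and 49 counts in control libraries. This was 4.90, 8.35 and 4.70 CPM against 6.42, 5.57 and 6.06 CPM. Atractylon replicate 2 was the highest library and the other treated libraries were the lowest. Means were 5.98 ± 2.05 and 6.02 ± 0.425 CPM (SD, n = 3 per group). The log2 fold change was -0.01 ± 0.29 (SE), and the 95% interval ran from 0.640-fold to 1.54-fold (edgeR adjusted p = 0.9999).

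ZEB1, a zinc-finger homeobox repressor (chromosome 10, 31318495 to 31529814, plus strand, GRCh38), received 108, 61.0 and 90.0 counts in treated and 60.3, 78.0 and 89.0 counts in control libraries, or 14.3, 9.26 and 13.6 against 11.0, 11.8 and 11.0 CPM. The lowest and the highest values were both treated libraries, and the controls sat between them. Means were 12.4 ± 2.74 and 11.3 ± 0.431 CPM (SD, n = 3 per group), with a log2 fold change of 0.14 ± 0.22 (SE) and a 95% interval of 0.792-fold to 1.54-fold (edgeR adjusted p = 0.9999). Few of these reads were assigned to coding transcripts: protein-coding ZEB1 transcripts held 3.47% of ZEB1 counts over all libraries, and the transcript classed as principal, ZEB1-201, held none. Transcripts with a retained intron held 65.0% to 88.0% per library. The retained-intron transcript ZEB1-206 alone held 66.6%, 65.0% and 52.5% in treated and 68.1%, 57.8% and 49.9% in control libraries, which overlapped (exact permutation p = 0.8). ZEB1-AS1 and AL117340.1 lie on the opposite strand of ZEB1, and the sources used here do not state if reads were counted by strand.

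SNAI1 and ZEB1 deviated with opposite signs in each treated library. Atractylon replicate 2 was 0.48 above the mean of 6 libraries for SNAI1 and 0.33 below it (-0.33) for ZEB1 on the log2 CPM scale. That library also had the most positive GC correlation, and the GC content of the transcripts, weighted by counts, was 58.2% for SNAI1 and 41.3% for ZEB1. The part of GC content in these deviations was not tested. With smooth GC and length trends removed from each library, the deviations in atractylon replicate 2 were 0.32 for SNAI1 and -0.03 for ZEB1. In atractylon replicate 3 they were -0.37 and 0.37, and in atractylon replicate 1 both were -0.10.

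The other 3 factors were at the edge of detection. SNAI2 (Slug), a close relative of SNAI1, had 0, 1 and 1 counts in treated libraries and 1 count in each control library. ZEB2, the paralog of ZEB1, was without a count in all treated libraries (0), and the controls held 2, 0 and 2. Its pooled control level was 0.198 CPM from 4 counts, and the 0 treated counts allow up to 0.145 CPM (3 counts over the group). A fit without the expression minimum gave ZEB2 an unadjusted p of 0.0906 (edgeR adjusted p = 1.00). TWIST1, a basic helix-loop-helix factor of mesoderm, had 0 counts in all 6 libraries, which allows up to 0.145 CPM in treated and 0.149 CPM in control cells. Of the GENCODE 29 transcripts, the deposited data held 2 of 4 for SNAI2, 25 of 48 for ZEB2 and all 3 for TWIST1. Intervals and limits cover counting error only. Differences of the size of these limits were not detectable at this depth in SNAI2, ZEB2 or TWIST1.

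VIM, whose protein is the standard mesenchymal filament marker, was also at the edge of detection. It had 2, 1 and 0 counts in treated and 1, 0 and 1 counts in control libraries. Pooled, this was 0.145 CPM in treated (exact Poisson 95% interval 0.0298 to 0.423) and 0.0991 CPM in control cells (0.0120 to 0.358). The table held 9 of the 10 VIM transcripts of GENCODE 29, including VIM-201, and VIM-AS1 lies on the opposite strand. The epithelial keratin KRT18, another intermediate filament gene, was at 1399 ± 179 and 1349 ± 87.4 CPM (SD, n = 3 per group).

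FN1 (chromosome 2, 215360440 to 215436172, minus strand, GRCh38) was the member with the highest level. It was at 9819, 7263 and 7706 CPM in treated and 6281, 7602 and 11395 CPM in control libraries. The control group held both the lowest and the highest library, with means of 8263 ± 1366 and 8426 ± 2654 CPM (SD, n = 3 per group). The log2 fold change was -0.03 ± 0.21 (SE), with a 95% interval of 0.716-fold to 1.34-fold (edgeR adjusted p = 0.9999). Without control replicate 3 the log2 fold change was 0.25 (edgeR adjusted p = 0.9998).

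SPARC (chromosome 5, 151661096 to 151687165, minus strand, GRCh38) was at 130, 147 and 137 CPM in treated and 161, 148 and 146 CPM in control libraries. Atractylon replicate 2 reached the level of the lower controls, so the groups overlapped. Means were 138 ± 8.46 and 152 ± 8.12 CPM (SD, n = 3 per group). SPARC had the smallest unadjusted p of the members, 0.212, with a log2 fold change of -0.13 ± 0.10 (SE) and the narrowest interval, 0.781-fold to 1.06-fold (edgeR adjusted p = 0.9999). Its fold change stayed negative in each of 20 alternative fits, from -0.19 to -0.09. By transcript, the coding SPARC-201 held 23.2%, 43.3% and 40.0% of SPARC counts in treated and 39.9%, 29.2% and 32.5% in control libraries. The retained-intron transcript SPARC-202 held 54.4%, 36.8% and 43.8% against 43.3%, 50.2% and 48.0%. The groups overlapped in both shares (exact permutation p = 0.8 for both).

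**Figure D3:**
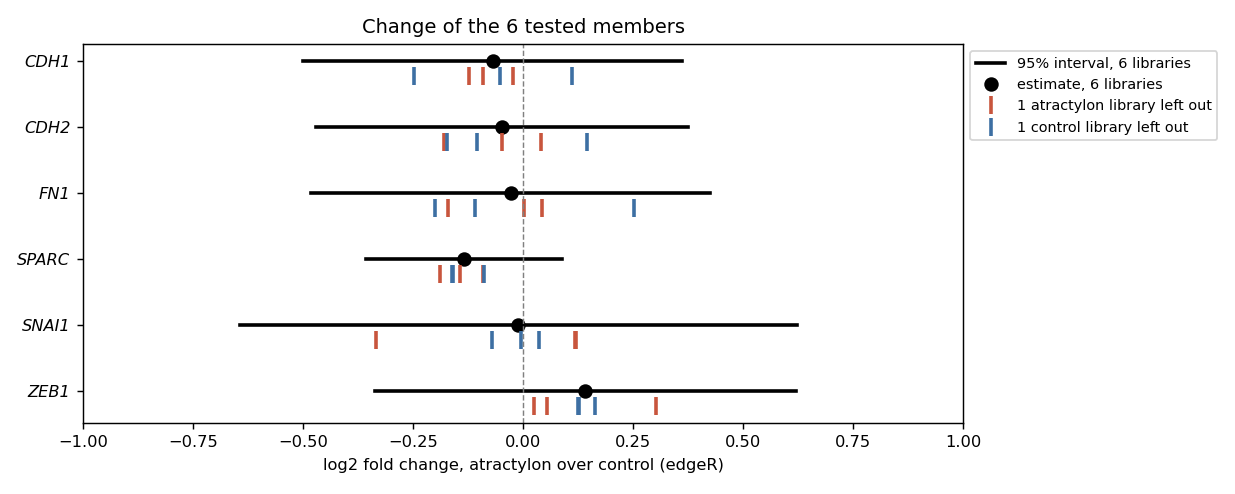
Log2 fold change of each tested member, atractylon over control, by edgeR (black point) with its 95% interval (black line), and the estimates when 1 library was left out (coloured ticks). Each interval crossed 0; SPARC stayed below 0 and ZEB1 above 0 in all 6 such fits, and CDH1, CDH2, FN1 and SNAI1 fell on both sides.

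Fibronectin is made in a plasma form by hepatocytes, which lacks the extra domains EDA and EDB, and in cellular forms that include them. Each domain is encoded by a cassette exon of FN1 on chromosome 2 (minus strand, GRCh38): EDA at 215380811 to 215381080 and EDB at 215392931 to 215393203, recognised by their known lengths. The junctions that tell inclusion from skipping are shown, with the last 15 bases of the shared upstream exon in lower case and the first 15 bases of the next exon in capitals.
EDA included (FN1-212): agactgcagtaaccaACATTGATCGCCCTA
EDA skipped (FN1-211): agactgcagtaaccaCTATTCCTGCACCAA
EDB included (FN1-201): ataccatcatcccagAGGTGCCCCAACTCA
EDB skipped (FN1-212): ataccatcatcccagCTGTTCCTCCTCCCA

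Of 10 full-length coding FN1 transcripts in the table, 5 hold EDA and 3 hold EDB, and together the 10 took 98.5% to 98.96% of FN1 counts per library. This split was chosen after the transcript values were seen. Transcripts with EDA took 61.0%, 59.0% and 63.2% of full-length counts in treated and 62.1%, 61.3% and 61.6% in control libraries. The means were 61.1% ± 2.08 and 61.7% ± 0.405 (SD, n = 3 per group, exact permutation p = 0.7). Transcripts with EDB were rare, at 2.56%, 3.25% and 2.93% in treated and 2.61%, 2.51% and 2.35% in control libraries, which overlapped (means 2.91% ± 0.346 and 2.49% ± 0.129, exact permutation p = 0.2). Transcripts with neither exon took 36.6% to 40.1% in treated and 37.2% to 37.7% in control libraries. Although the total of FN1 varied between libraries, from 6281 to 11395 CPM, the EDA share stayed within 59.0% to 63.2%. FN1-212, the most abundant transcript, held 53.4% to 55.6% of full-length counts. The transcripts also differ at other exons, so these shares are estimates from the division of reads and not direct junction counts. Of 34 member transcripts tested, 0 passed the threshold and 0 had an unadjusted p below 0.05, against 928 (2.33%) of all transcripts. FN1 had 19 of the 34, and the lowest unadjusted p was 0.0758, for FN1-206, which holds EDA and at most 0.607% of full-length counts (edgeR adjusted p = 1.00).

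**Figure D4:**
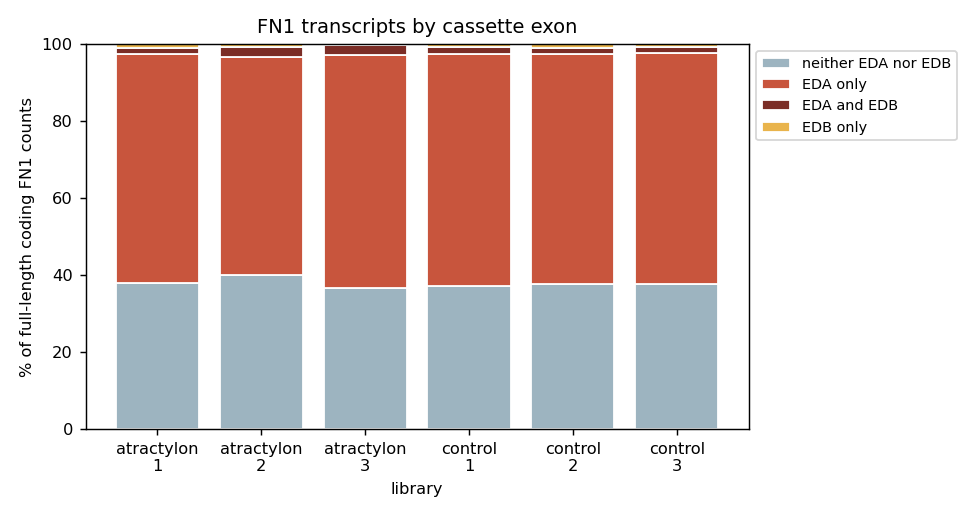
Stacked shares (%) of full-length coding FN1 counts by content of the EDA and EDB exons, 1 bar per library. EDA-containing transcripts made up 59.0% to 63.2% and EDB-containing transcripts 2.35% to 3.25% in the 6 libraries.

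The FN1 promoter window of RefSeq (GRCh38.p14) is shown because FN1 was the most abundant member. Capitals mark the cyclic AMP response element TGACGTCA, present in 1.85% of 35116 windows, and GGGCGG on either strand, matched 6 times here with overlaps.
FN1, chr2:215436019-215436318, minus strand: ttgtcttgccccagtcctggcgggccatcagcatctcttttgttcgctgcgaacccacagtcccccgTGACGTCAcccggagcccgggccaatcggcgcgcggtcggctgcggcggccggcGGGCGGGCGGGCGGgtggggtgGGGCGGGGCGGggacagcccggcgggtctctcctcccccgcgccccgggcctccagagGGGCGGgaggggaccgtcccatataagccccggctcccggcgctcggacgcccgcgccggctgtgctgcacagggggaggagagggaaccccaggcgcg

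RefSeq windows were matched for 6 members, CDH2, VIM, FN1, ZEB1, ZEB2 and SPARC, with 13 windows in all. CAGGTG occurred in 2 of them, both of ZEB1.

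CDH1, CDH2 and FN1 had the same highest and the same lowest library, and both were controls. All 3 genes were highest in control replicate 3, at 0.35, 0.35 and 0.48 above their means on the log2 CPM scale. All 3 were lowest in control replicate 1, at -0.41, -0.25 and -0.38. In atractylon replicate 1, CDH2 and FN1 were also high, at 0.22 and 0.26, while CDH1 was at 0.02. Their count-weighted transcript lengths were 4110, 4043 and 7875 bases (4402 for ZEB1, which did not share this order), and control replicate 3 and atractylon replicate 1 were the libraries with positive length correlations (0.29 and 0.38). Control replicate 1 had a length correlation of -0.08 and a GC correlation of -0.42. With smooth GC and length trends removed, the SD over 6 libraries went from 0.31 to 0.18 for FN1, from 0.25 to 0.21 for CDH1 and from 0.24 to 0.20 for CDH2. Control replicates 3 and 1 then remained the highest and lowest library for all 3 genes, at 0.29 and -0.27 for FN1. The part of GC content and length in this order was not tested. SPARC, with a weighted length of 2121 bases, was instead highest in control replicate 1 and had an SD of 0.10.

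**Figure D5:**
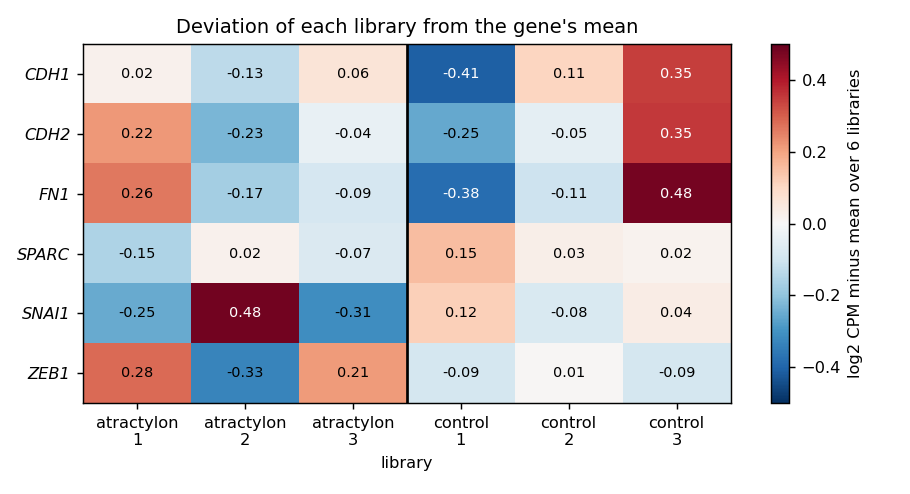
Log2 CPM of each tested member in each library minus its mean over 6 libraries, with treated libraries left and control libraries right of the black line. CDH1, CDH2 and FN1 were lowest in control replicate 1 and highest in control replicate 3; SNAI1 and ZEB1 had opposite signs in the 3 treated libraries.

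Genes that work with the members were read from lists, and in each list 0 genes passed the edgeR threshold in either direction. Values are given as treated against control means with SD (n = 3 per group). The cadherin-catenin complex had 6 of 8 genes tested, with 2 positive and 4 negative fold changes and a median log2 fold change of -0.02. Its genes included CTNNB1 (beta-catenin, the link from cadherin to alpha-catenin) at 297 ± 66.1 against 331 ± 45.4 CPM, CTNNA1 (alpha-catenin, which binds actin) at 328 ± 11.9 against 337 ± 27.4 CPM and CTNND1 (p120-catenin, which keeps cadherins at the surface) with a log2 fold change of -0.03 ± 0.11 (SE). Genes of E-cadherin turnover and shedding had 9 of 9 tested, with 4 positive and 5 negative, and a median of -0.02. NCSTN, a subunit of the gamma-secretase that cleaves E-cadherin, was at 170 ± 9.32 against 182 ± 19.9 CPM.

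Of 20 other cadherins 4 were tested, 3 positive and 1 negative, with a median of 0.23, and 11 had 0 counts in all libraries, among them the mesenchymal cadherin CDH11. CDH15 (M-cadherin of muscle) was at 6.29 ± 0.640 against 3.99 ± 1.51 CPM, with no overlap between groups (log2 fold change 0.64 ± 0.31, SE, edgeR adjusted p = 0.9999). CDH16 was at 39.6 ± 4.41 against 34.3 ± 2.26 CPM.

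Of 15 other EMT transcription factors 7 were tested, 3 positive and 4 negative, with a median of -0.03, while TCF4, FOXC2, PRRX1 and GSC had 0 counts in all libraries. SOX4 was at 17.7 ± 2.34 against 20.6 ± 2.80 CPM. Partners of SNAI1 and ZEB proteins and regulators of SNAI1 stability had 14 of 19 tested, 4 positive and 10 negative, with a median of -0.06. In 2 of the 14, against 5.73% of all genes tested, the groups did not overlap. These were EED and EZH2, subunits of Polycomb complex 2, at 10.5 ± 1.66 against 13.4 ± 1.05 CPM and 10.3 ± 0.174 against 12.4 ± 1.30 CPM, and neither passed (edgeR adjusted p = 0.9999 for both). The corepressor gene CTBP1 was at 303 ± 32.4 against 282 ± 13.0 CPM.

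Regulators of the epithelial state had 9 of 14 tested, 4 positive and 5 negative, with a median of -0.01. GRHL2 had 0 counts in all libraries, and ESRP1 had counts in control replicate 1 alone (0.184 CPM). In 1 of the 9 the groups did not overlap, against 5.73% of all genes tested. This was the pioneer factor FOXA2, at 55.6 ± 6.05 against 62.9 ± 1.91 CPM (edgeR adjusted p = 0.9999, log2 fold change -0.18 ± 0.12, SE). FOXA1 was at 69.3 ± 4.07 against 76.6 ± 10.4 CPM. Other mesenchymal matrix and cytoskeleton genes had 11 of 26 tested, 4 positive and 7 negative, with a median of -0.04, and 6 genes at 0 in all libraries, including COL1A2, COL3A1, TNC and POSTN. In 3 of the 11 the groups did not overlap, against 5.73% of all genes tested. LOX, the collagen crosslinking enzyme, was at 11.6 ± 1.27 against 8.44 ± 1.00 CPM, the integrin subunit ITGA5, a partner in the fibronectin receptor, at 5.59 ± 0.946 against 3.61 ± 0.857 CPM, and the tropomyosin gene TPM2 at 0.631 ± 0.244 against 1.21 ± 0.224 CPM. LOX and ITGA5 were thus on the higher side and TPM2 on the lower side with treatment, and none passed (edgeR adjusted p = 0.9999 for each, unadjusted p = 0.0497 for LOX). Genes of the intermediate filament network had 7 of 8 tested, 3 positive and 4 negative, with a median of -0.0014. PLEC, a cytoskeletal linker, was at 246 ± 10.5 against 224 ± 39.7 CPM.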

How the data were processed

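The 6 HepG2 libraries came from total RNA handled with the SMART-Seq v4 kit for ultra-low input, per the labels' protocols. The authors deposited an expected count (estimated reads, which need not be whole) and an FPKM for each of 180253 transcripts, per the file headers. The submitters' processing notes name the build hg19, HISAT2 2.0.1, cutadapt 1.9.1, bcl2fastq 2.17.1.14 and DESeq2 1.6.3, with no role or order. Not given in the sources used here are the program behind the expected counts, its annotation and whether it used strand.

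Transcript IDs were matched to GENCODE 29 (GRCh38) for names, coordinates and exons; 153243 (85.0%) matched, and the rest, with 8.70% to 9.08% of counts, were left out. Coordinates are thus those of GRCh38 and not of the submitters' build, while 93.1% of matched transcripts had the GENCODE 29 length. Expected counts were summed per gene, rounded and tested with edgeR 4.0.16 (R 4.3.3, quasi-likelihood, TMM scaling, 2-sided, Benjamini-Hochberg adjustment over all genes tested, threshold 0.05). The SE was the log2 fold change divided by the square root of the F statistic. Genes entered when 3 or more libraries had an FPKM of 0.5 or more. Of 12293 genes, 9996 (81.3%) had a 95% interval within 2-fold of the estimate. Transcripts were tested in the same way, and isoform shares by 2-sided exact permutation tests. Members below the minimum were read from a fit without it, and no fold is printed for them because 1 or both groups held at most 3 counts. DESeq2 1.42.0, limma 3.58.1 on log2(FPKM + 0.5), other scalings, filters, a replicate block, GC and length trends and leaving out each library were alternatives. The scripts were tested on simulated data.

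Named were all members, the genes with the smallest p of each list (up to 3) and the members' transcripts of highest FPKM. CDH1-202, ZEB1-201, VIM-201, FN1-206, FN1-225 and the FN1 exon groups were chosen after their values were seen. Members and lists were chosen with earlier results of these data known.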

Additional observations from a re-analysis of the deposited data

How the results depend on the processing

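No member passed the threshold in any of 120 alternative values (20 for each of 6 genes, lowest adjusted p 0.712), of which 106 kept their sign and 14 reversed. FN1 reversed to 0.0037 with the replicate number as a block, to 0.0028 with the GC trend removed, to 0.030 with both, and to 0.0068 with GC and length trends removed, an alternative chosen after seeing the data. CDH2 reversed to 0.018 with the replicate block and GC trend removed. With 1 library left out, the log2 fold change ran from -0.25 to 0.11 for CDH1, from -0.18 to 0.15 for CDH2, from -0.20 to 0.25 for FN1 and from -0.33 to 0.12 for SNAI1, while SPARC (-0.19 to -0.09) and ZEB1 (0.02 to 0.30) kept their sign. The cause was not tested.

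Over all genes, 0 were called higher in each alternative, and 0 lower in 19 of 20; leaving out 1 library gave 0 to 1 lower, with 1 lower and 1321 genes at an unadjusted p below 0.05 without atractylon replicate 1. Same-numbered libraries correlated at 0.13, 0.17 and 0.01 in their deviations, and differently numbered ones at -0.17 to 0.02. Whether the numbers pair libraries was not tested. The labels name no pairing, and the main fit used none. The replicate block called 0 genes, with 300 at an unadjusted p below 0.05 by edgeR against 198 without it. Of the members' transcripts 0 passed in any alternative. SNAI2, ZEB2, TWIST1 and VIM were limited by depth, at 0 to 2 counts per library.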
